A study of Mus musculus with 6 samples.

Results

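The nuclear-encoded genes of the mitochondrial respiratory chain and of the ATP synthase were described in endothelial cultures of *Nhe6*-knockout (KO) and wildtype (WT) mice. The cells came from the stria vascularis with the spiral ligament, per the study's methods. *Cox6b2*, an isoform of a cytochrome c oxidase subunit, was described in most detail. Members were taken by their symbols. These were *Ndufa*, *Ndufb*, *Ndufc*, *Ndufs* or *Ndufv* followed by a number, *Sdha* to *Sdhd*, *Uqcr* genes, *Cox4* to *Cox8* genes, and *Atp5* genes. This took 83 of the 24421 symbols in the table. The set, and *Cox6b2* within it, were chosen with earlier results of these data known. By symbol, 36 belong to complex I, 4 to complex II, 8 to complex III, 18 to complex IV and 17 to complex V. Some symbols do not match today's view of the subunits: *Ndufa4* is now counted with complex IV, *Cox7a2l* encodes a factor that joins complexes, and *Atp5s* and *Atp5sl* encode no subunit of the ATP synthase. Enough reads were counted to test 78 of the 83 members.

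The study asked how loss of NHE6, an endosomal sodium and proton exchanger, changes gene expression in the capillary endothelium of the cochlea. RNA was taken from 3 KO and 3 WT primary cultures, each pooled from at least 6 mice of postnatal days 10 to 12, grown in endothelial medium with serum and left untreated. Both genotypes have the strain background C57BL/6N in the labels, where KO mice are named Nhe6 KO and the others Wild type, whereas the study's methods name C57bl6/j as the background of the line. Poly(A)-enriched stranded libraries were read over 75 cycles, and 25587097 to 29126232 reads per library fell on genes. As models, the cultures are limited in that cells grew outside the tissue for a time before RNA was taken, that every culture mixes several animals, and that nothing in the table separates cell types. In such bulk samples, fewer cells of a type and less RNA per cell cannot be told apart. The p-values set the difference between genotypes against the spread between cultures of 1 genotype.

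Some facts on the libraries bear on all values. In what follows a normalized count is a read count after TMM scaling of every library to 1 common size. KO replicates 1 and 2 were closest to each other, with a chi-square of 4.90 per gene between their counts against 89.4 to 397 in the other pairs of 1 genotype, which is still more than sampling noise. WT replicate 2 stood apart from both other WT cultures (397 and 360 per gene, against 135 between those). Per the study's methods, endothelial cells were sorted by fluorescence before further culture. Of 12 endothelial markers, 8 were tested and 5 had log2 fold changes below 0. In edgeR *Cdh5* (VE-cadherin) alone passed (log2 fold change -4.15, adjusted p = 0.0133), and it passed no longer without WT replicate 3 or without any 1 of the KO replicates (adjusted p = 0.0643 to 0.179). *Flt1* (log2 fold change -1.79) was also lower in every KO than in every WT culture. DESeq2's Wald test called *Cdh5* and *Flt1* (adjusted p = 1.41e-34 and 0.0104), against 4.65% of all genes. *Esam*, *Cd34* and *Kdr* had log2 fold changes of -3.54, -1.17 and -0.42 with overlapping groups. *Tek*, *Emcn* and *Eng* had log2 fold changes of 0.67, 0.68 and 0.76 with overlapping groups, and *Cldn5* was at 0 in all libraries. The median of the 8 was -0.795. In edgeR 3 of the 8 tested markers had an unadjusted p under 0.05 (37.5%, against 11.8% of all genes). The endothelial sums overlapped, at 16650 to 25730 normalized counts in KO and 15830 to 23430 in WT libraries. Summed fibroblast markers reached 205000 to 352000 per library, of which *Col1a2* alone gave 87306 to 186223, and the share of other cell types in the cultures was not tested.

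The respiratory chain lies in the inner mitochondrial membrane. Complex I takes electrons from NADH and complex II takes them from succinate, both pass them by ubiquinone to complex III and by cytochrome c to complex IV, and complex IV hands them to oxygen. Complexes I, III and IV pump protons, and the ATP synthase, here complex V, makes ATP from the proton gradient. Most subunits are encoded in the nucleus and a core set in mitochondrial DNA. Several nuclear subunits of complex IV come in pairs of isoforms, one used by nearly all tissues and one by muscle, lung or testis. The stria vascularis itself is rich in mitochondria, mainly in its marginal cells, since it drives the ion transport behind the endocochlear potential.

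*Cox6b1* and *Cox6b2* encode alternative forms of subunit 6b, which sits on complex IV on the side of the intermembrane space; *Cox6b1* is the general form and *Cox6b2* is known from testis. Both lie on chromosome 7 of GRCm38 on the minus strand, *Cox6b2* at chr7:4751792-4753094 and *Cox6b1* at chr7:30616861-30626151. Their coding sequences (GENCODE M21, transcripts 201), spliced from exons within chr7:4751922-4752835 and chr7:30617109-30624605, are shown because the results turn on telling these genes apart by 75-base reads. Capitals mark bases that differ between them, or face a gap, in a global alignment.

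Cox6b1: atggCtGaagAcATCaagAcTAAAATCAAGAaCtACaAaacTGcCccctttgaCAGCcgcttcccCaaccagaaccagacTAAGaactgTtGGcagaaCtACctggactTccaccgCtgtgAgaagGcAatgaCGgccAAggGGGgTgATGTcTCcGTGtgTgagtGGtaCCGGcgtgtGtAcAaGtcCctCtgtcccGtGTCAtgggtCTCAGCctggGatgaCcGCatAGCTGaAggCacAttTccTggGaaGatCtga
Cox6b2: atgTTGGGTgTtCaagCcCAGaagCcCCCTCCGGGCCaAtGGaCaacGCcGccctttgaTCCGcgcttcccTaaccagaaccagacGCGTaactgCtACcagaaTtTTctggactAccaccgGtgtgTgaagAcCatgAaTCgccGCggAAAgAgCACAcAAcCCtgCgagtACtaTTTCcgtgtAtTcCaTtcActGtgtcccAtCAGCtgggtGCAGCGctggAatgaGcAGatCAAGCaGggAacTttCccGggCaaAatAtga

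The *Cox6b1* sequence has 261 bases (86 codons before the stop) and the *Cox6b2* sequence 267 (88 codons). They were identical at 158 of 260 aligned positions (60.8%), and the longest run of identical bases between any annotated transcripts of these genes was 14 bases. No 75-base stretch of either gene occurred in the transcripts of another annotated gene, so a read of full length could not come from both without mismatches. Of the 83 members, 47 had no stretch of that length in common with another gene and 18 had more than 10% of their stretches in common, *Atp5l* most (76.0%), mainly with *Gm10221*. Counts of those 18 genes, among them *Atp5o*, *Atp5g2*, *Ndufb4* and *Uqcrb*, are less certain, because such reads fit more than 1 gene and how they were counted is not given in the sources used here.

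The 250 bases before the annotated start of each gene (RefSeq, GRCm38.p6) are shown as the regulatory sequence next to the isoform that rose and to its general form; capitals mark the CCAAT box on either strand. The window of *Cox6b2* lies at chr7:4753095-4753344 and that of *Cox6b1* at chr7:30626115-30626364, both read on the minus strand. The *Cox6b1* window follows the RefSeq start, so its bases up to chr7:30626151 lie within the gene as placed above by GENCODE.

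Cox6b2 promoter: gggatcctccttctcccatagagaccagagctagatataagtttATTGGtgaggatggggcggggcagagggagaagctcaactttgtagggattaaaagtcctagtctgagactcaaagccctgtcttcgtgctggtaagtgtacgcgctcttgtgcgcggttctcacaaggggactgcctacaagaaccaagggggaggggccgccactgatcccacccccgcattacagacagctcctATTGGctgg
Cox6b1 promoter: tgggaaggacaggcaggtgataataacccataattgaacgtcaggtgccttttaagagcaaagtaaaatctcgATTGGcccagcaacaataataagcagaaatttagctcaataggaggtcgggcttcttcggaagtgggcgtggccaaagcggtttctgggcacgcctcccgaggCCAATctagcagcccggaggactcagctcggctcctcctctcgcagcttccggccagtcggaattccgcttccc

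Each window held 2 CCAAT boxes, and the *Cox6b1* window also held 1 match to CCGGAAG, the core that GABP and other ETS factors bind, which the *Cox6b2* window lacked. The *Cox6b2* window had 8 CpG dinucleotides and the *Cox6b1* window 14. Of the 83 members, 69 had a window of this kind. CCAAT, searched on both strands as were all motifs, was in 44.9% of those 69 members, 40.6% of 10692 tested genes and 37.5% of all 27025 genes with a window. CCGGAAG was in 17.4% of the members, 15.2% of tested genes and 7.8% of all genes. The NRF1 site, written TGCGCANGC, was in 13.0%, 8.0% and 3.9%, the YY1 site AAGATGGC in 2.9%, 2.3% and 1.8%, the ERR site AAGGTCA in 7.2%, 3.4% and 4.7%, and TATAAA in 8.7%, 7.9% and 14.3%. No window of *Cox6b1* or *Cox6b2* held any of the last 4 motifs. These are matches of letters and were not set against the expression values. Among the members with no window were *Atp5a1*, *Cox4i1*, *Cox4i2*, *Cox6a2*, *Cox6c*, *Cox8c*, *Ndufa2*, *Ndufb9*, *Ndufs1*, *Sdhc*, *Uqcrb*, *Uqcrc2* and *Uqcrq*.

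*Cox6b2* rose in KO cells. Reads counted on it numbered 1127, 1220 and 1404 in KO replicates 1 to 3 and 358, 399 and 274 in WT replicates 1 to 3, which gave 1196, 1133 and 1328 normalized counts in KO and 349.9, 412 and 293 in WT cultures. Every KO culture lay above every WT culture by more than the spread within either genotype. The log2 fold change was 1.79 (SE 0.17, 95% confidence interval 1.384 to 2.204), or 3.47-fold, with an adjusted p = 0.0416 from edgeR's quasi-likelihood test, adjusted over all 13479 genes tested. *Cox6b2* was the only member that passed this test, 1 of 78, where the background was 9 of 13479 genes (0.0668%). With DESeq2's Wald test 2 members passed, *Cox6b2* (adjusted p = 3.09e-15) and *Sdha* (adjusted p = 0.0376), against 4.65% of all genes. Without WT replicate 2, which stood apart, *Cox6b2* alone passed in edgeR (log2 fold change 1.92, adjusted p = 0.0119), against 2.92% of all genes.

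The size of the *Cox6b2* difference varied little with the cultures used, but its adjusted p did. Leaving out any culture other than WT replicate 2 gave a log2 fold change of 1.68 to 1.84 with an adjusted p of 0.0686 to 0.392 in edgeR, above the threshold of 0.05. When KO replicates 1 and 2 were summed to 1 library, since they were so close, the log2 fold change was 1.82 and edgeR gave an adjusted p = 0.338. In edgeR *Cox6b2* had an unadjusted p = 2.78e-05 with all cultures, and it stayed under 0.05 unadjusted in all 15 alternatives. Marker sums moved with the genotype as well. Summed over 14 cell cycle markers, KO libraries held 7985 to 14310 normalized counts and WT libraries 2557 to 3832, with all 14 log2 fold changes above 0, of which 0 passed in edgeR (0.0668% of all genes), 13 had an unadjusted p under 0.05 (11.8% of all genes) and 11 passed with DESeq2 (4.65% of all genes). KO replicate 3 had the lowest of these KO sums and the highest *Cox6b2* value. In WT replicates 1, 2 and 3 the sums were 3247, 3832 and 2557, in the same order as their *Cox6b2* values. Of 9 germ cell markers, 6 were at 0 in all libraries (*Prm1*, *Prm2*, *Tnp1*, *Acrv1*, *Ldhc*, *Pgk2*), and the sum of the list was lower in KO (10.6 to 19.9) than in WT libraries (33.0 to 34.2). The part of the cell cycle genes in the *Cox6b2* difference was not tested.

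The genes beside *Cox6b2* on the chromosome had smaller log2 fold changes, between -0.73 (*Tmem238*) and 0.25 (*Hspbp1*). Among 4 neighbours on each side, 5 could be tested, of which 0 passed in edgeR, 0 had an unadjusted p under 0.05 and 0 passed with DESeq2. The nearest of those tested, listed under the older symbol *Suv420h2*, had a log2 fold change of 0.02 (SE 0.32). *Fam71e2*, on the same strand at chr7:4753226-4771302, does not overlap *Cox6b2* but overlaps the promoter window of *Cox6b2* shown above. *Fam71e2* was not tested and was listed at 0 counts in each KO library and at 3, 6 and 3 in the WT libraries.

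*Cox6b1*, the general isoform, had 3504, 3311 and 3252 normalized counts in KO and 3699, 3830 and 3088 in WT cultures. The groups overlapped, with a log2 fold change of -0.08 (SE 0.13, 95% confidence interval -0.38 to 0.23, adjusted p = 0.864 from edgeR). Levels of different genes were compared per length, as RPKM (reads per kilobase of exon, scaled to the size of the library) computed on the TMM-scaled libraries. On that scale *Cox6b2* reached 59.7 ± 4.88 (SD, n = 3) in KO and 17.2 ± 2.90 (SD, n = 3) in WT cultures, while *Cox6b1* reached 197 ± 7.75 (SD, n = 3) and 208 ± 23.3 (SD, n = 3). *Cox6b2* thus made up 22.2%, 22.2% and 25.4% of the pair in KO and 7.31%, 8.23% and 7.33% in WT cultures. The shares did not overlap, at 23.3% ± 1.86 (SD, n = 3) against 7.62% ± 0.52 (SD, n = 3). An exact two-sided permutation test gave p = 0.1, the smallest that 3 against 3 allows, and 0.2 after adjustment over the 4 isoform shares tested.

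**Figure D1:**
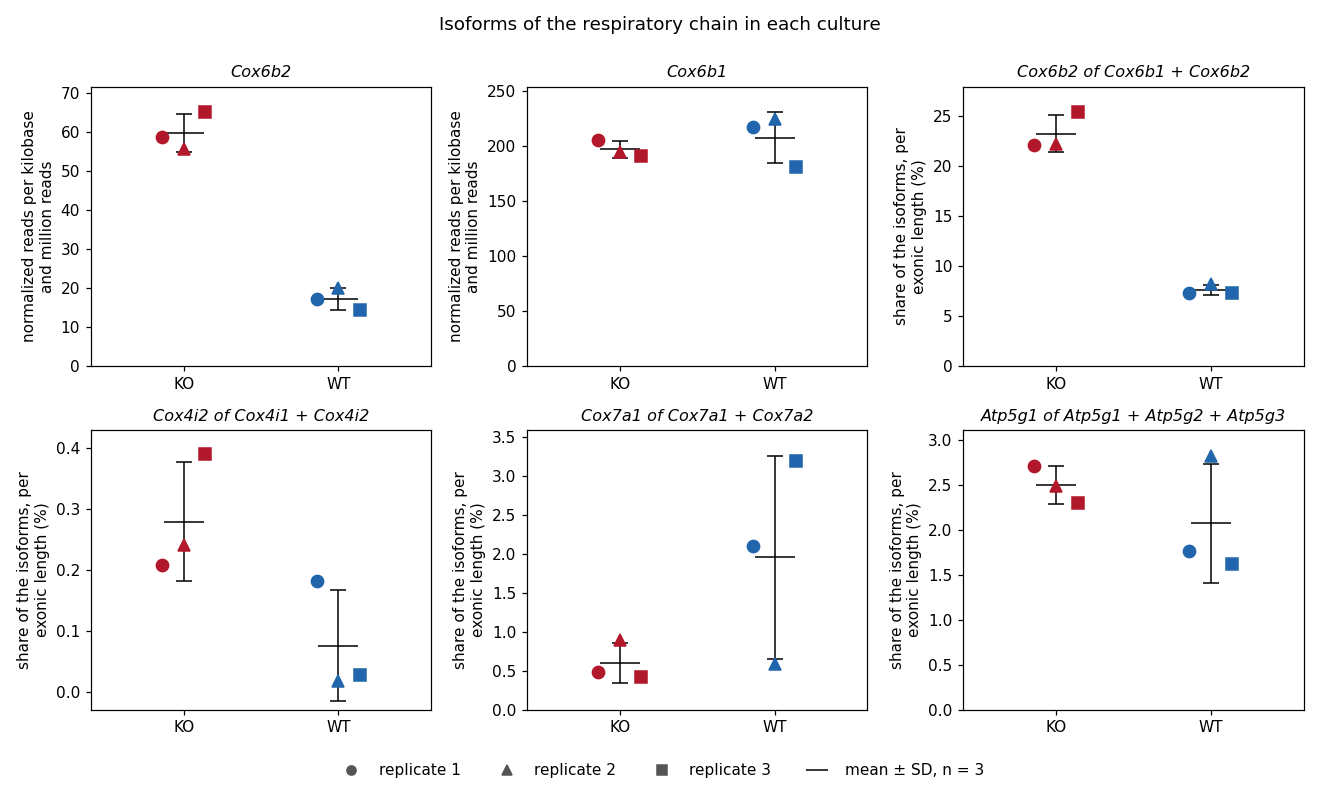
Isoforms of the respiratory chain in each culture, KO in red and WT in blue, with 1 symbol per replicate and the mean ± SD (n = 3) in black. Upper row: *Cox6b2* and *Cox6b1* as RPKM on TMM-scaled libraries, and *Cox6b2* as a share of the pair per exonic length (%); lower row: shares of *Cox4i2*, *Cox7a1* and *Atp5g1* among their isoforms (%). The KO shares of *Cox6b2* lie at 22.2% or above and the WT shares at 8.23% or below.

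The remaining isoforms of complex IV were read at very low levels or overlapped between the genotypes. *Cox4i2*, the form of subunit 4 known from lung, had 12.7, 15.8 and 21.8 normalized counts in KO and 11.7, 1.03 and 1.07 in WT cultures. All KO values were above the WT values, but WT replicate 1 was close to KO replicate 1, and the log2 fold change of 1.82 (SE 0.91) did not pass (adjusted p = 0.496 from edgeR). Without WT replicate 1 it was 3.85 (adjusted p = 0.211), also not passing. Against *Cox4i1*, the general form, *Cox4i2* was 0.208%, 0.240% and 0.391% of the pair in KO and 0.182%, 0.0177% and 0.0281% in WT cultures (exact two-sided permutation p = 0.1, adjusted 0.2). *Cox4i1* itself had 5943, 6363 and 5385 normalized counts in KO and 6260.0, 5657 and 3692 in WT cultures. Its values overlapped, at a log2 fold change of 0.18 (SE 0.22).

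*Cox7a1*, the form of subunit 7a used in heart and skeletal muscle, pointed the other way without passing. It had 7.43, 13.9 and 6.62 normalized counts in KO and 41.1, 10.3 and 44.9 in WT cultures, so that WT replicate 2 lay within the KO values. The log2 fold change was -1.77 (SE 0.66, unadjusted p = 0.0355, adjusted p = 0.373 from edgeR). At an unadjusted p under 0.05, *Cox7a1* and *Cox6b2* were the 2 members of 78 called, against 11.8% of all genes. The share of *Cox7a1* in its pair with *Cox7a2* was 0.479%, 0.889% and 0.416% in KO and 2.10%, 0.586% and 3.19% in WT cultures (exact two-sided permutation p = 0.2, adjusted 0.267). Striated muscle markers, 14 genes with *Myh8*, *Ckm* and *Myog* at 0 in all libraries, summed to 76.6 to 117 normalized counts in KO and 263 to 799 in WT libraries, and their part in the *Cox7a1* values was not tested.

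*Cox7a2*, the general form of subunit 7a, had 1902, 1913 and 1954 normalized counts in KO and 2362, 2155 and 1681 in WT cultures (log2 fold change -0.10, SE 0.15). *Cox6a1*, the general form of subunit 6a, had 1535, 1703 and 1475 in KO and 1649, 2366 and 1199.95 in WT cultures (log2 fold change -0.15, SE 0.25). In both genes the KO cultures were close together and the WT cultures spread around them. The muscle form *Cox6a2* was counted at most once in any library and was not tested. *Cox7b* had 2637, 2394 and 2378 normalized counts in KO and 2576, 2372 and 2184 in WT cultures (log2 fold change 0.05, SE 0.12). *Cox8a* had 2339.8, 2465 and 2332 in KO and 3099, 2841 and 2383 in WT cultures (log2 fold change -0.22, SE 0.13). *Cox8a* was the lowest member of complex IV after *Cox7a1*, and its KO replicate 2 lay above WT replicate 3. Their alternative forms *Cox7b2*, *Cox8b* and *Cox8c*, known from testis or muscle, were at 0 counts in all 6 libraries, where 3 counts in a library are the limit that a count of 0 allows if reads of these genes were counted under their symbols. *Cox6b2* was the only one of the testis forms with more than 3 reads in any library. Of the 14 members of complex IV tested, 1 passed and 11 lay within 0.5 of 0 on the log2 scale.

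**Figure D2:**
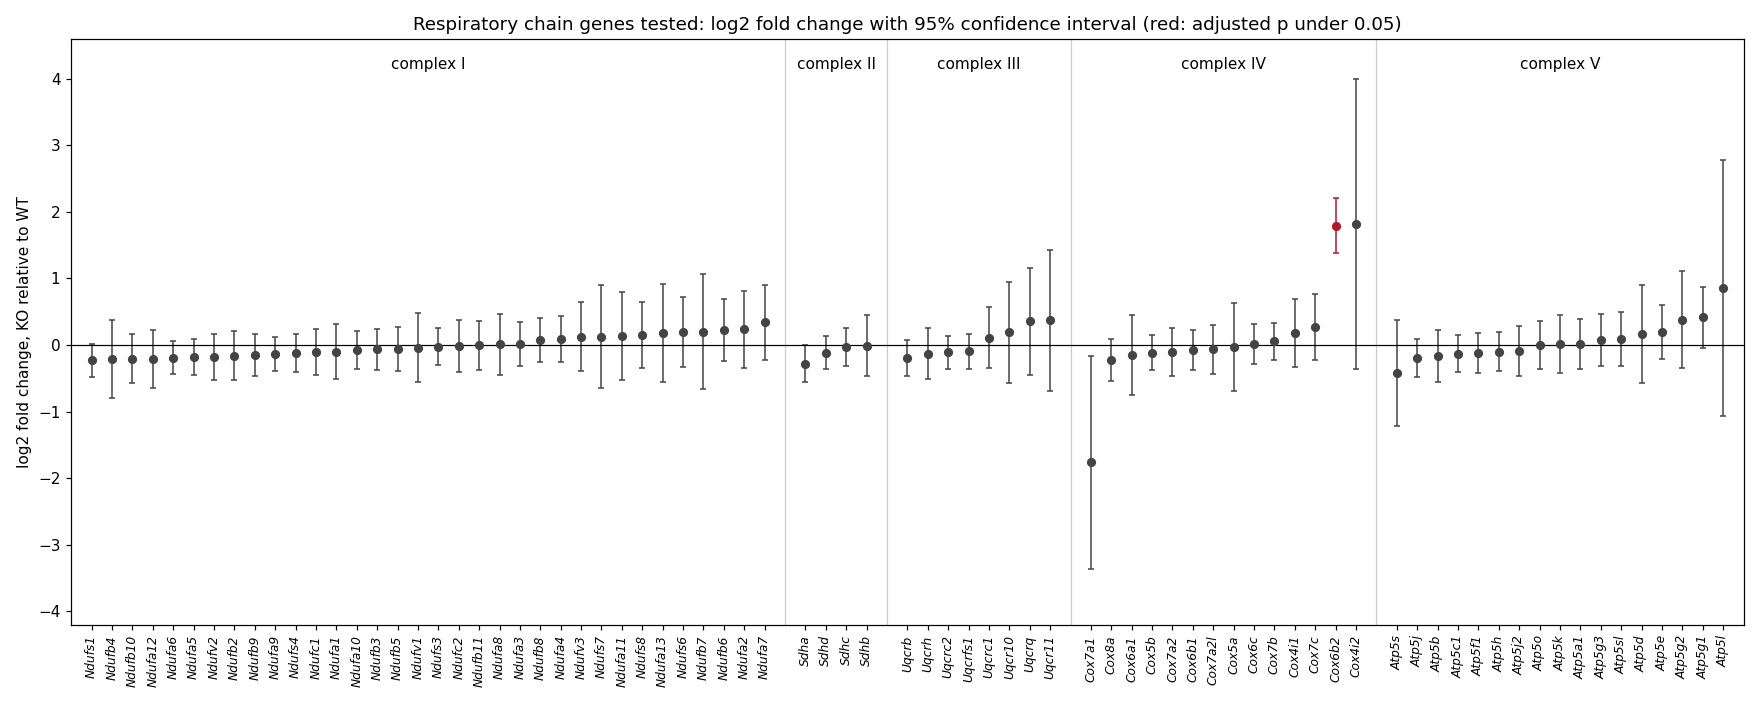
Log2 fold change (KO relative to WT) of 77 of the 78 members tested, sorted within complexes I to V, with 95% confidence intervals from edgeR. *Cox6b2*, in red, is the only member with an adjusted p under 0.05, and 73 of the 77 points lie within 0.5 of 0.

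Complex II was the complex whose summed reads did not overlap between the genotypes. Its 4 genes took 0.0626%, 0.0624% and 0.0612% of gene reads in KO and 0.0694%, 0.0697% and 0.0646% in WT cultures (exact two-sided permutation p = 0.1, the smallest possible, and 0.6 adjusted over 6 shares). Most of these reads came from *Sdha*, the flavoprotein subunit that oxidizes succinate (chr13:74322254-74350280). *Sdha* had 9376, 9313 and 9252 normalized counts in KO and 11322.5, 11232 and 11389 in WT cultures. The replicates of each genotype were almost equal and the groups were apart, at a log2 fold change of -0.28 (SE 0.12, 95% confidence interval -0.56 to 0.00). This passed DESeq2's test, as given above, and not edgeR's (unadjusted p = 0.0509, adjusted p = 0.424). *Sdhb*, the iron-sulfur subunit, had 1721, 1882 and 1639.8 in KO and 1898, 2077 and 1298 in WT cultures, and its log2 fold change of -0.01 (SE 0.19) was the nearest to 0 in the complex. *Sdhc* and *Sdhd*, the membrane anchors, had log2 fold changes of -0.03 and -0.11 and did not pass.

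Among the 35 tested genes of complex I, 0 passed in edgeR, 0 had an unadjusted p under 0.05 and 0 passed with DESeq2. Their log2 fold changes ran from -0.23 to 0.34 with a median of -0.03, and 20 were below 0. *Ndufs1*, the large iron-sulfur subunit at the entry of electrons (chr1:63143596-63176833), was lowest. It had 3137, 3205 and 2894 normalized counts in KO and 3607, 3619 and 3609 in WT cultures, with no overlap (log2 fold change -0.23, SE 0.10, adjusted p = 0.452 from edgeR). *Ndufa7*, an accessory subunit, was highest, with 1535, 1559 and 1448 in KO and 1382, 1412 and 785 in WT cultures (log2 fold change 0.34, SE 0.23, adjusted p = 0.639 from edgeR). Its groups did not overlap either, but WT replicate 3 was far below the other WT cultures, and without it the log2 fold change was 0.12. *Ndufs5*, a general subunit of the membrane arm, was listed at 0 in all libraries. The annotation used for counting is not given in the sources used here, so this 0 is not read as a level. Complex I took 0.195%, 0.197% and 0.181% of gene reads in KO and 0.211%, 0.184% and 0.161% in WT cultures, which overlap.

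Complex III had 8 genes tested, of which 0 passed in edgeR, 0 had an unadjusted p under 0.05 and 0 passed with DESeq2. *Uqcrb*, a small subunit next to the ubiquinone site, had 1900.3, 1809.7 and 1809 normalized counts in KO and 1954, 2032 and 2319 in WT cultures. All KO values were below the WT values (log2 fold change -0.19, SE 0.11, adjusted p = 0.572 from edgeR). *Uqcr11*, the smallest accessory subunit, had 792, 936 and 639.6 in KO and 879, 700.4 and 252 in WT cultures. Its log2 fold change of 0.37 (SE 0.44) rested on WT replicate 3 and was 0.00 without that culture. *Uqcrc1* and *Uqcrc2*, the core proteins, had log2 fold changes of 0.11 and -0.11, and *Uqcrfs1*, the Rieske iron-sulfur protein, of -0.10.

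Of the 17 genes of complex V, all tested, 0 passed in edgeR, 0 had an unadjusted p under 0.05 and 0 passed with DESeq2. The catalytic core genes *Atp5a1* and *Atp5b*, which encode the alpha and beta subunits, had log2 fold changes of 0.02 (SE 0.16) and -0.17 (SE 0.16). *Atp5g1*, *Atp5g2* and *Atp5g3* encode the same mature c subunit of the proton-driven ring. *Atp5g1* had 739, 680.01 and 585 normalized counts in KO and 515, 585 and 399.98 in WT cultures, overlapping in 1 pair of cultures that were equal at this rounding (log2 fold change 0.42, SE 0.19, unadjusted p = 0.0679, adjusted p = 0.459 from edgeR). *Atp5g2* had 322, 352 and 304 in KO and 311, 291 and 148 in WT cultures (log2 fold change 0.38, SE 0.30). *Atp5g3* gave most of the reads, with 3587, 3564 and 3361 in KO and 3903, 2670.5 and 3422 in WT cultures (log2 fold change 0.07, SE 0.16). Per exonic length, *Atp5g1* was 2.713%, 2.497% and 2.300% of the 3 genes in KO and 1.77%, 2.83% and 1.63% in WT cultures (exact two-sided permutation p = 0.4, adjusted 0.4). That length includes long annotated transcripts of *Atp5g1* and lowers its share in all cultures alike.

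*Atp5s* and *Atp5l* were the extremes of complex V. *Atp5s* had 277, 325 and 513 normalized counts in KO and 351, 465 and 676 in WT cultures (log2 fold change -0.42, SE 0.33, adjusted p = 0.687 from edgeR). *Atp5l*, for subunit g, had 48.8, 28.8 and 17.0 in KO and 37.1, 5.16 and 9.63 in WT cultures (log2 fold change 0.85, SE 0.80, adjusted p = 0.744 from edgeR). *Atp5l* varied severalfold within each genotype while KO and WT values overlapped in both genes, and *Atp5l* is the gene that had most 75-base stretches in common with others.

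**Figure D3:**
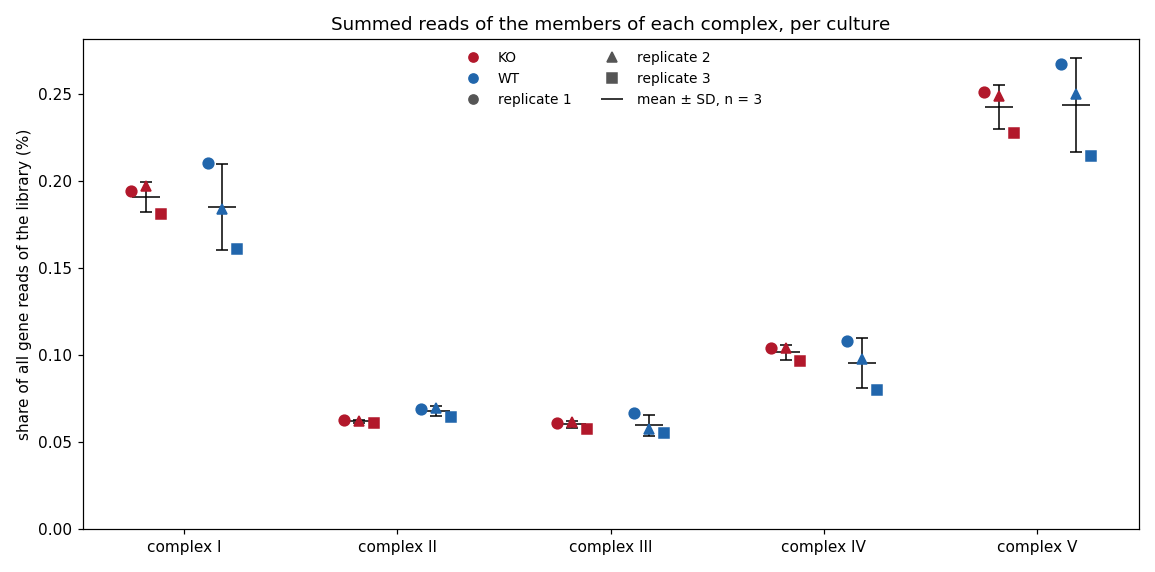
Share of each library's gene reads (%) on the members of complexes I to V, KO in red and WT in blue, with 1 symbol per replicate and the mean ± SD (n = 3) in black. Complex II is the only complex without overlap, at 0.0626% or below in KO and 0.0646% or above in WT cultures.

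Taken over all members, the chain took 0.674%, 0.675% and 0.625% of gene reads in KO and 0.723%, 0.659% and 0.576% in WT cultures (exact two-sided permutation p = 0.8, adjusted 0.9 over the total and the 5 complexes). The median log2 fold change of the 78 members was -0.03, against -0.02 over all genes tested, and 44 of 78 (56.4%) were below 0 against 51.9%. Of the members, 94.9% lay within 0.5 of 0, against 76.8% of all genes. Among genes that average 100 or more normalized counts, the shares were 98.7% of 75 members and 82.8% of 11127 genes. The 95% confidence intervals of the members reached 0.38 to either side in the median and up to 2.18, which limits what single members could show with these cultures.

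In 13 of 78 members (16.7%) all KO cultures lay on 1 side of all WT cultures, against 19.9% of all genes tested. In 10 of them (12.8% of the members) KO was lower (*Atp5c1*, *Atp5j*, *Cox5b*, *Ndufa5*, *Ndufa6*, *Ndufa9*, *Ndufs1*, *Sdha*, *Uqcrb* and *Uqcrc2*), where the background was 9.57%. In the other 3 (3.85%) KO was higher (*Cox4i2*, *Cox6b2* and *Ndufa7*), where it was 10.3%.

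The members also varied between cultures of 1 genotype, many of them together. WT replicate 3 held the lowest value of the 6 cultures in 41 of 78 members (52.6%), against 23.1% of all genes. WT replicate 1 held the highest value in 39 members (50% against 19.8%) and the lowest in 0. KO replicate 3 was lowest in 19 members (24.4% against 12.5%). Without WT replicate 3, 64 of 78 members (82.1%) had a log2 fold change below 0, against 52.0% of all genes, with a median of -0.12 against -0.02, and 0 members passed, where 2 of all genes did. Without WT replicate 1 the number below 0 was 32 of 78 (41.0%, against 50.7% of all genes), with a median of 0.05 against -0.01. Without KO replicate 3 it was 38 of 78 (48.7%, against 52.6% of all genes), with a median of 0.018 against -0.023. Without KO replicate 1, KO replicate 2 or WT replicate 2 it was 48, 47 and 44, with medians of -0.067, -0.057 and -0.026. Upper-quartile normalization of all 6 libraries gave 38 of 78 (48.7%, against 48.1%), with a median of 0.003 against 0.014. The direction of the members as a group therefore depended on the cultures and the normalization used.

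**Figure D4:**
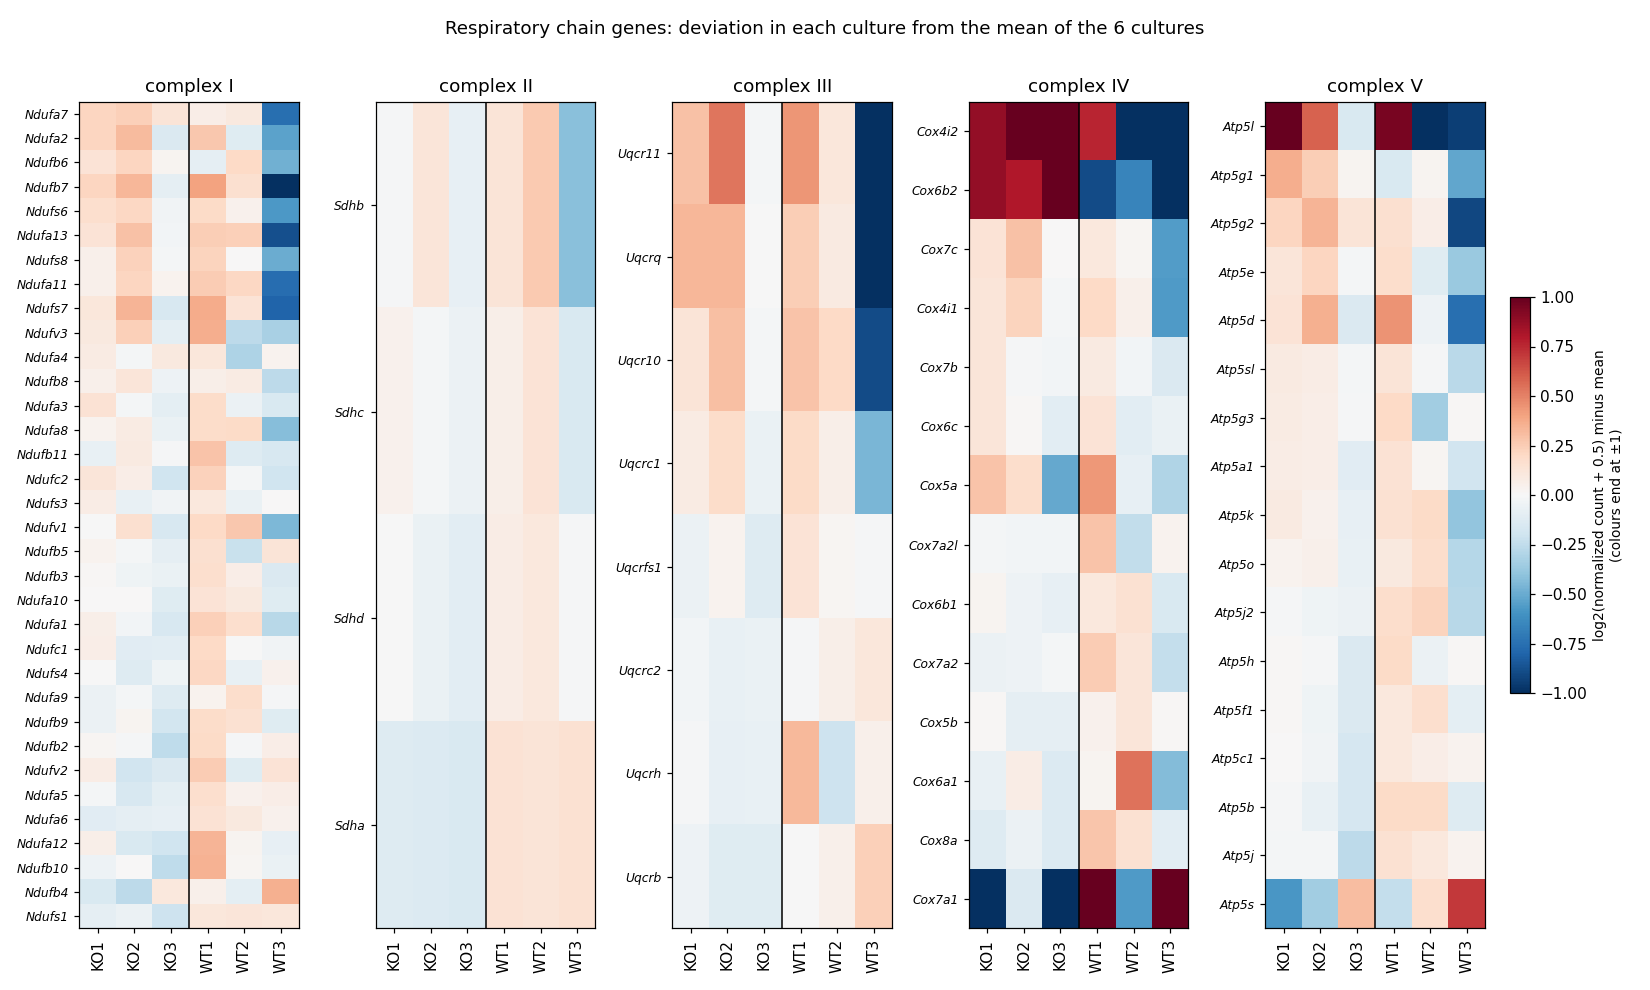
Deviation of 77 of the 78 tested members in each culture from their means over the 6 cultures, in log2(normalized count + 0.5), by complex and sorted by log2 fold change, with red above and blue below the mean of a member. The column of WT replicate 3 is blue in most members that lead the panels, and *Cox6b2* is red in all 3 KO and blue in all 3 WT cultures.

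The low values of WT replicate 3 went with the GC content of the transcripts. Over the 75 members that average 100 or more normalized counts, the log2 ratio of WT replicate 3 to the mean of WT replicates 1 and 2 fell with GC content (Pearson's r = -0.59, Spearman's rho = -0.57). These are correlations across genes that share libraries, given as a description. Over 11094 genes of that level the values were -0.37 and -0.53. Sorted by GC into 3 groups of 25 members, the median ratio was -0.09 in the low group (GC 37.0% to 48.5%), -0.25 in the middle group (48.6% to 52.5%) and -0.61 in the high group (53.0% to 63.3%). The mean of the KO cultures, set against the same WT replicates 1 and 2, had medians of -0.13, -0.11 and -0.10 in these groups. *Uqcr11*, at 59.8% GC, had the lowest ratio of the 75 (-1.64), followed by *Ndufb7* (-1.31) and *Uqcrq* (-1.16). *Cox6b2* has a GC content of 55.7%. With offsets that follow how the counts of a library depend on GC content and length, its log2 fold change was 1.69 and its adjusted p = 0.0652 in edgeR, and 50 of the 78 members were below 0 (64.1% against 60.9% of all genes).

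**Figure D5:**
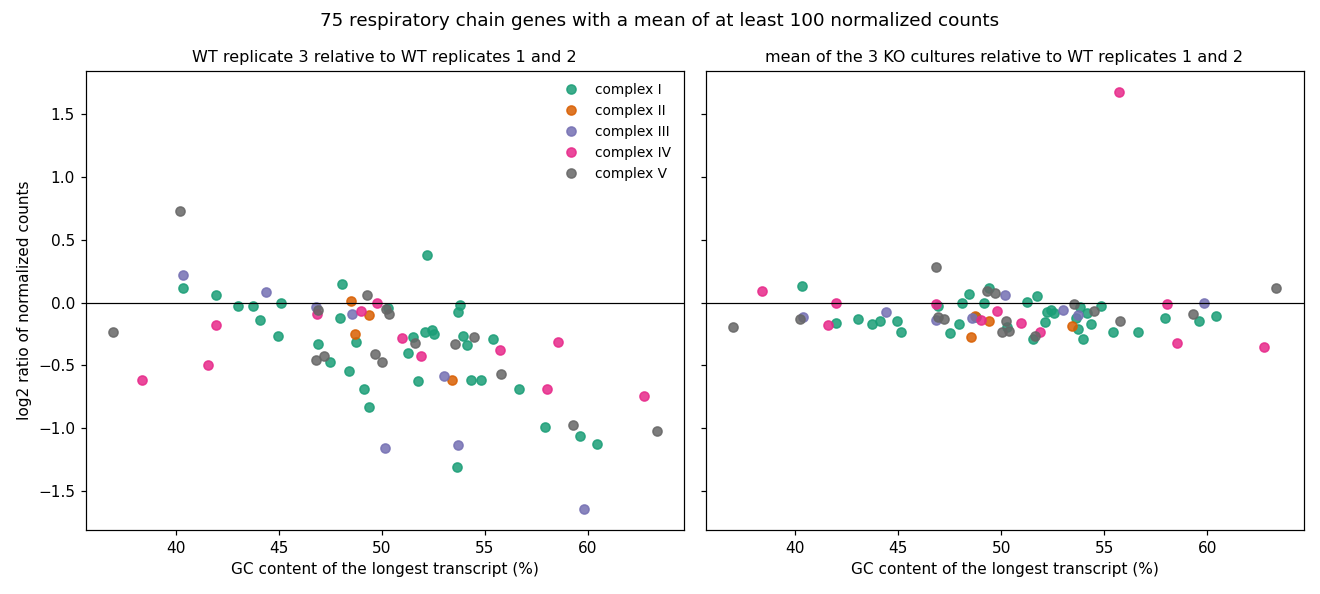
GC content of the longest transcript (%) against log2 ratios of normalized counts for 75 members that average 100 or more normalized counts, coloured by complex. Left: WT replicate 3 relative to WT replicates 1 and 2, where the median falls from -0.09 in the low to -0.61 in the high GC group; right: the mean of the KO cultures relative to the same cultures, where 1 point of complex IV, *Cox6b2*, stands above the rest.

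Genes that build or feed the chain were looked at from lists that share no gene with the members. Of 52 assembly factors tested, 0 passed in edgeR, 2 (3.85%) had an unadjusted p under 0.05, against 11.8% of all genes, and 0 passed with DESeq2, against 4.65%. Their median log2 fold change was -0.07. The 2 were *Ndufaf7*, a methyltransferase needed for complex I (log2 fold change -0.27, SE 0.11, adjusted p = 0.398 from edgeR), and *Uqcc1*, needed for complex III (-0.30, SE 0.12, adjusted p = 0.394). Those for complex IV ranged from *Cox20* (-0.37) and *Cox11* (-0.32) to *Cmc2* (0.30) and *Cox16* (1.13, SE 0.96), the last at 0 to 20.4 normalized counts. Further subunits and associated proteins under other symbols, 6 of 7 tested, gave 0 called in edgeR, 0 at an unadjusted p under 0.05 and 0 with DESeq2, from *Higd1a* (-0.26) and *2010107E04Rik* (-0.22) to *Usmg5* (0.07) and *Ndufab1* (0.28).

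Regulators of mitochondrial biogenesis, 17 genes, gave 0 called in edgeR, 1 at an unadjusted p under 0.05 (*Pprc1*, named for that count) and 0 with DESeq2, with a median log2 fold change of 0.14. They ran from *Mterf1a* (-0.45) and *Tfb2m* (-0.22) to the nuclear receptors *Esrra* (0.54, SE 0.41) and *Esrrg* (1.00, SE 0.84). Of 19 carriers and electron donors tested, 1 passed in edgeR and with DESeq2, against 0.0668% and 4.65% of all genes. At an unadjusted p under 0.05 there were 5 (26.3%, against 11.8% of all genes): *Nnt*, *Gpd2*, *Slc25a5*, *Etfb* and *Coq2*, the last 2 named only after this count was seen. *Nnt*, the transhydrogenase that makes NADPH in the inner membrane, had 1224, 1276 and 1392 normalized counts in KO and 3553, 4512 and 3816 in WT cultures, far apart, and fell by 1.61 on the log2 scale (SE 0.14, adjusted p = 0.0226 from edgeR). Leaving out any culture other than WT replicate 2 ended this call, at an adjusted p of 0.0643 to 0.358 in edgeR and a log2 fold change of -1.68 to -1.57. *Nnt* is known for a deletion that C57BL/6J mice carry and C57BL/6N mice lack, and the part of substrain in any difference between these genotypes was not tested. *Gpd2*, which passes electrons from glycerol phosphate to ubiquinone, had a log2 fold change of -0.55 (SE 0.21, adjusted p = 0.379 from edgeR). *Slc25a5*, an ADP and ATP carrier, had 0.62 (SE 0.21, adjusted p = 0.314 from edgeR), and *Ucp2* had 0.94 (SE 0.77). No symbol of the subunits encoded in mitochondrial DNA was among those used here, so the nuclear and mitochondrial parts of the chain were not compared.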

How the data were processed

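Reads per gene came from 1 table covering 3 KO and 3 WT cultures. Per the labels, the authors made stranded poly(A) libraries, sequenced them over 75 cycles, and worked with bcl2fastq 2.20.0.422, STAR 2.7.7a, HTSeq 0.13.5, DESeq2 1.26.0 and the build mm10. The deposited values are whole-number counts of reads per gene symbol, with no normalization. Its 5 summary lines (21.5% to 23.6% of reads per library) were left out. How reads that fit several sites were counted is not given in the sources used here, and this can change the values of genes with near copies.

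Members were found by symbol. Genes were filtered with filterByExpr (minimum count 10), scaled by TMM (factors 0.976 to 1.03), and tested for genotype over 6 libraries in 1 model (edgeR 4.0.16, quasi-likelihood, two-sided; R 4.3.3). P-values were adjusted by the Benjamini-Hochberg method over 13479 genes, at a threshold of 0.05. The SE is the log2 fold change over the square root of F. Errors of means are SDs over cultures. Shares were compared with exact permutation tests (scipy 1.17.1). Positions, exonic lengths (union of coding transcripts) and GC content came from GENCODE M21 on GRCm38 (mm10), which matched 23376 symbols as written and 678 by another name. Promoter windows came from RefSeq, GRCm38.p6.

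Any member could be named. Values per culture were given for *Cox6b2*, *Cox6b1*, isoform pairs, members past the threshold in edgeR or DESeq2, and the highest and lowest of each complex; from other lists, genes past the threshold and the 2 lowest and 2 highest were named. Members, lists, tests and alternatives were chosen with earlier results of these data known. Alternatives were other normalizations, filters, DESeq2 1.42.0, limma-voom (limma 3.58.1), a replicate block, offsets for GC content and length, KO replicates 1 and 2 summed (tried in earlier work on these counts), and each culture left out. The tests were tried on simulated counts first. The level of the targeted gene and the values of 1 member are not reported here.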

Additional observations from a re-analysis of the deposited data

How the results depend on the processing

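The log2 fold change of *Cox6b2* stayed between 1.68 and 1.92 over 15 alternatives, with an adjusted p under 0.05 in 7 of them and above it in 8. It was 1.80 (adjusted p = 0.101) with a replicate block, 1.69 (0.0652) with GC and length offsets and 1.82 (0.338) with KO replicates 1 and 2 summed, all in edgeR. Leaving out 1 culture gave 1.68 to 1.92, with an adjusted p of 0.0119 (without WT replicate 2) to 0.392. The number of members called was 0 with the block, the offsets or the summed libraries, 2 with DESeq2, and 0 to 1 with 1 culture left out. The number of all genes called was 9, and 21 with no filter beyond 1 count or with 10 counts in every library, 627 with DESeq2, 2 with the block, 1 with the summed libraries and 1 to 393 with 1 culture left out, where WT replicate 2 gave the 393. The causes of these changes were not tested. The replicate numbers were not taken to pair the cultures, since deviations of same-numbered cultures correlated at 0.21, -0.19 and 0.11, and 1 of 3 KO cultures correlated best with the WT culture of its own number. The share of *Cox6b2* in its pair with *Cox6b1* was higher in KO by 15.64 percentage points per length and by 17.65 percentage points as raw reads, which is how the length scaling acts.

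Of 282 values for 19 other named members, 269 kept direction and side of the threshold, *Sdha* passed with DESeq2, and 12 had the other sign, over 7 members that did not pass in edgeR with all cultures. *Sdhb* reversed with upper-quartile normalization (0.0252), limma-voom (0.0166) and the replicate block (0.017), and ranged from -0.19 to 0.13 with 1 culture left out. In such fits *Atp5g3* ranged from -0.0639 to 0.20, *Cox4i1* from -0.015 to 0.34, *Cox6a1* from -0.35 to 0.14, *Cox7a2* from -0.23 to 0.0038, *Cox7b* from -0.0026 to 0.12 and *Uqcr11* from -0.0005 to 0.73. The summed share without mitochondrially encoded genes was not run, since the table used here lists none. The confidence intervals of the members reached 0.38 on the log2 scale to either side in the median, which limits what 3 cultures a genotype could show.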
